A study of Mus musculus with 4 samples.

Results

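The response of PMCA4-/- cardiac fibroblasts to phenylephrine was read from 2 of the 4 arrays of the study, 1 carrying RNA of untreated PMCA4-/- cells and 1 carrying RNA of PMCA4-/- cells given 30 µM phenylephrine for 72 h. The other pair of arrays carried RNA of WT fibroblasts, untreated or given the same treatment. The cells were isolated with collagenase from hearts of 3-month-old male mice and cultured for 4 days, and in PMCA4-/- mice the Atp2b4 gene had been disrupted in every cell of the body by a neomycin cassette in place of exon 2 and a portion of exon 3. Each array was hybridised with 6 µg of RNA pooled from 3 batches of fibroblasts. The methods also speak of several independent RNA pools per genotype, and neither they nor the labels say how these relate to the single array of each condition. The spread between cultures was not measured. With 1 array per condition no difference between the PMCA4-/- arrays had a replicate check, and none of the values below carries an SD or a p-value unless a test is named.

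Phenylephrine is an agonist of α1-adrenergic receptors. These couple through Gq to phospholipase C, which raises inositol trisphosphate and cytosolic calcium and activates protein kinase C, and calcium then feeds calcineurin and NFAT. PMCA4 is a plasma membrane pump that exports calcium from the cell. Cardiac fibroblasts make and remodel the collagen matrix of the heart and secrete growth factors, Wnt antagonists and cytokines that act on cardiomyocytes.

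The 4 arrays had equal median PUMA intensities of 34.0, where PUMA is a probabilistic estimate of a probe set's brightness on a linear scale. The tables held 45037 probe sets, of which 37818 were annotated to 1 gene, giving 20586 genes. Each gene was read at its brightest probe set, and 11378 genes with a mean above the median over the PMCA4-/- arrays were counted. The fibroblast label fitted the markers: 9 of 10 fibroblast markers were counted and their summed intensity was 82647 untreated and 79374 with phenylephrine, while Tcf21 lay below the median on both arrays. None of 10 cardiomyocyte, 7 measured lymphocyte or 3 measured erythroid markers was counted. The probe set of Atp2b4 read 31.6 and 37.9 in PMCA4-/- cells and 19.6 and 23.3 in WT cells, close to the array median, and its place relative to the deleted exons was not given, so it did not check the genotype. The summed macrophage markers were 2204 untreated and 2464 with phenylephrine, with 4 of 10 counted and Ptprc, Itgam, Tyrobp and Fcer1g below 13 on both arrays. Among them Csf1r, the receptor of macrophage colony-stimulating factor, read 378 and 492 (log2 difference 0.38), against 153 and 180 in WT cells. Cd14 read 1295 and 1431 in PMCA4-/- cells, while Adgre1, at 44.5 and 39.9, and Lyz2, at 441 and 431, were slightly lower. Of the other marker lists, mesothelial markers summed to 135 and 110, Schwann cell markers to 352 and 314, endothelial markers to 337 and 349, and smooth muscle and pericyte markers to 441 and 462. The part of such cells in the results below was not tested, and in RNA of whole cultures fewer cells of a type and less RNA per cell cannot be told apart.

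The expression profile of PMCA4-/- fibroblasts after 72 h of phenylephrine differed little from that of untreated cells. Of the counted genes, 91.1% lay within 1.2-fold. The median log2 difference was 0.03, the SD over genes was 0.16, and the range ran from −1.34 for Fhod3 to 1.15 for Angpt4. Probe sets of the same gene gave the only error of measurement used here: over 5155 genes with several counted probe sets, their log2 differences had a pooled SD of 0.14. The authors' probabilities of a positive log ratio were not used.

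A gene was called higher or lower when it was at least 1.5-fold apart in PUMA, with values under the array median raised to it, and had the same sign in Robust Multiarray Average, the second estimate of the same arrays. By this rule 47 genes (0.413% of those counted) were called higher and 38 (0.334%) lower. Most were dim. The 2845 dimmest counted genes, with mean intensities of 34.0 to 145, held 42 of the genes called higher and 29 of those called lower, and the 2845 brightest, from 995 upwards, held 0 and 3. Above 100 on both arrays, a limit chosen after the data were seen, 5 of 9243 genes were called higher (0.0541%) and 10 lower (0.108%). When each array was centred on its own median log2 intensity over counted probe sets, 36 genes were called higher and 53 lower. The balance between higher and lower calls therefore depended on the scaling.

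**Figure D1:**
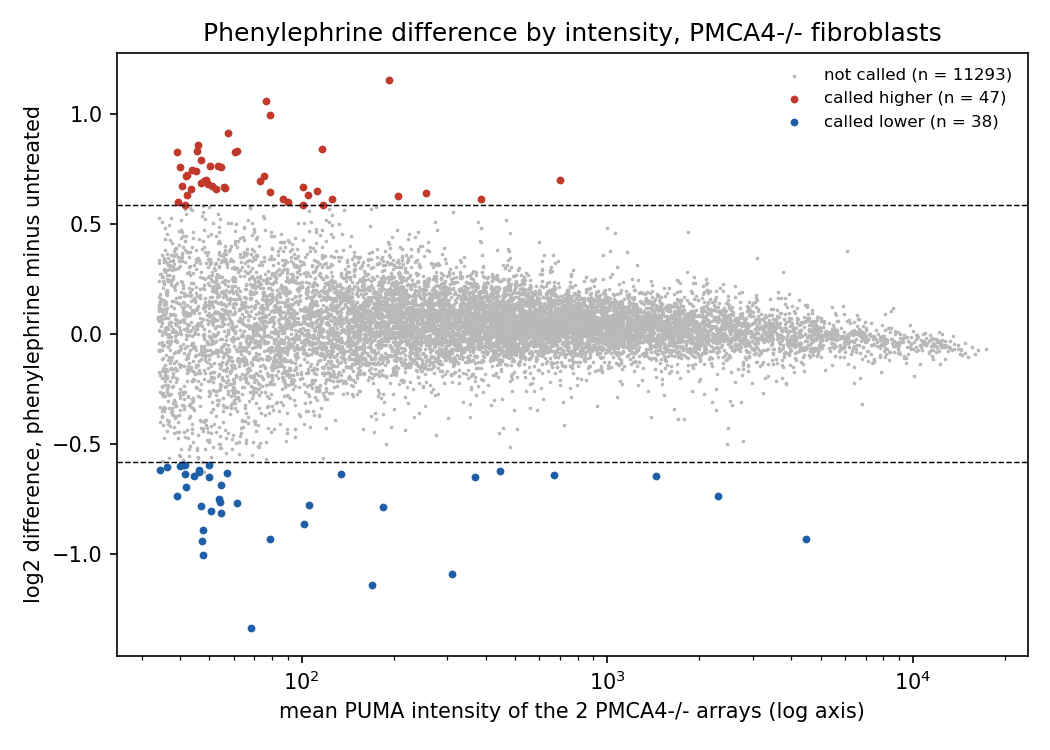
Log2 difference between phenylephrine-treated and untreated PMCA4-/- fibroblasts (PUMA) against the mean intensity of the 2 arrays on a log axis, 1 point per counted gene, with dashed lines at 1.5-fold. Most of the 47 genes called higher (red) and 38 called lower (blue) sit at the dim end, and 3 of the 2845 brightest genes lie below the lower line.

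In Robust Multiarray Average the called genes lay closer together. Their median log2 difference was 0.25 for those called higher and −0.24 for those called lower, against 0.69 and −0.72 in PUMA. At least 1.5-fold in both estimates were 4 genes in the higher direction (0.0352% of those counted) and 13 in the lower (0.114%). The higher 4 were Angpt4, Olfm1, Serpinb9b and Plcxd1. The lower 13 were C1qtnf3, Col14a1, Ldb2, Igfbp5, Fhod3, Dhrs3, Pi15, Dpt, Cilp, Cnmd, Egr1, Fbln7 and Ptn. Ascc1 and Adssl1, chosen after their values were seen, had the next largest PUMA differences after Angpt4 in the higher direction, 1.06 and 0.99, and read 0.17 and 0.37 in the other estimate.

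**Figure D2:**
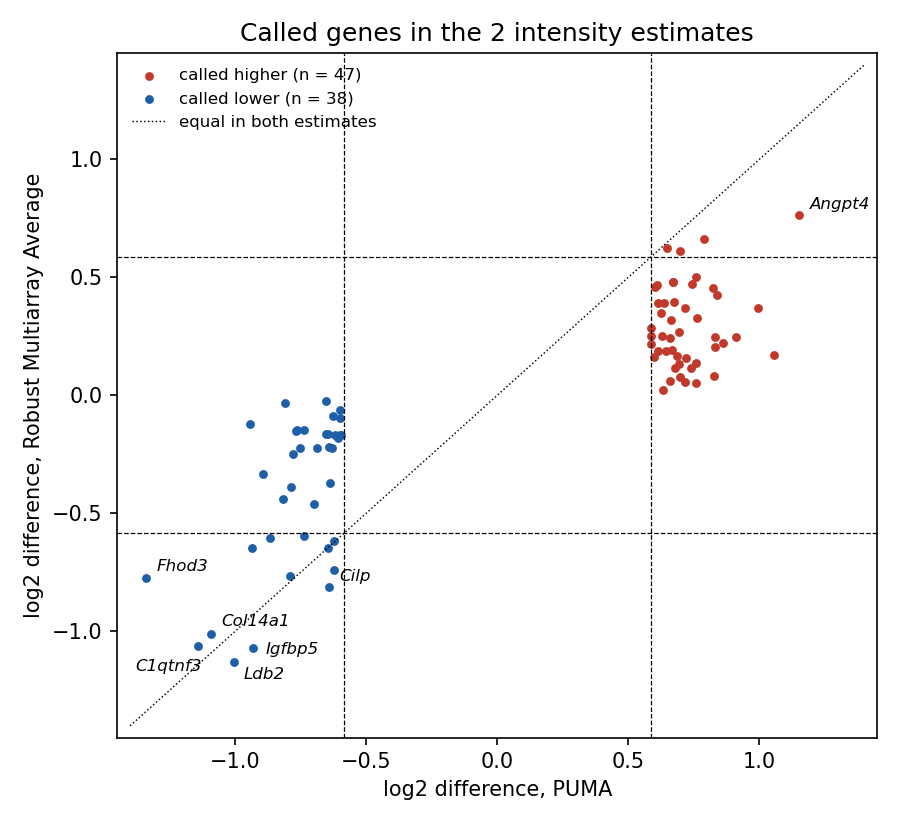
Log2 difference between phenylephrine-treated and untreated PMCA4-/- fibroblasts in PUMA (x axis) and in Robust Multiarray Average (y axis) for the 85 called genes, with dashed lines at 1.5-fold and a dotted line of equal values. Most points lie nearer to 0 on the y axis, and 13 lower and 4 higher genes pass the lines of both estimates.

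The structural matrix genes at least 1.5-fold lower in both estimates were Col14a1, Cilp, Dpt and Fbln7. Col14a1, which encodes collagen XIV, a collagen that sits on the surface of fibrils, read 424 in untreated and 199 in phenylephrine-treated PMCA4-/- cells, 2.13-fold lower (log2 difference −1.09 in PUMA and −1.01 in Robust Multiarray Average). Its second counted probe set read 243 and 130. Cilp, which encodes cartilage intermediate layer protein, a secreted matrix protein, read 815 and 523 (−0.64 and −0.81). Dpt, which encodes the decorin-binding matrix protein dermatopontin, read 1758 and 1124 (−0.65 in both estimates), and Fbln7, a fibulin, read 131 and 72.0 (−0.87 and −0.61).

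Among secreted factors, C1qtnf3, Igfbp5, Ptn, Pi15 and Cnmd were lower. C1qtnf3, which encodes a secreted protein of the C1q and tumour necrosis factor family, read 235 untreated and 106 with phenylephrine (−1.14 and −1.06). Igfbp5, whose product binds insulin-like growth factors, was the brightest gene called in either direction, at 5871 and 3076 (−0.93 and −1.07). Its second probe set, at 154 and 110, differed by −0.48 in PUMA and by only −0.12 in Robust Multiarray Average. Ptn, which encodes the heparin-binding growth factor pleiotrophin, read 2869 and 1722 (−0.74 and −0.60). Its 3 counted probe sets all had lower values with phenylephrine, from −0.90 to −0.31 on the log2 scale. Pi15, a secreted peptidase inhibitor, read 104 and 54.2, and Cnmd, which encodes the angiogenesis inhibitor chondromodulin, read 52.3 and 16.5, below the array median in treated cells.

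The other lower genes encode intracellular proteins. Egr1, a zinc-finger transcription factor of the immediate early class, read 541 and 351 (−0.62 in both estimates). Dhrs3, a retinaldehyde reductase, read 234 and 135 (−0.79 and −0.77). Fhod3, a formin that assembles actin in sarcomeres, read 98.2 and 38.8 (−1.34 and −0.77), and Ldb2, a cofactor of LIM-domain transcription factors, read 68.2 and 26.7 (−1.01 and −1.13), so that the last value lay below the array median. The promoter of C1qtnf3 is shown because this gene had the largest difference in the lower direction when the smaller of its 2 estimates was taken. The window runs from 250 bases before to 50 after the start in RefSeq (GRCm38.p6, chr15:10952082-10952381, + strand), with its TATAAA match in capitals.
C1qtnf3: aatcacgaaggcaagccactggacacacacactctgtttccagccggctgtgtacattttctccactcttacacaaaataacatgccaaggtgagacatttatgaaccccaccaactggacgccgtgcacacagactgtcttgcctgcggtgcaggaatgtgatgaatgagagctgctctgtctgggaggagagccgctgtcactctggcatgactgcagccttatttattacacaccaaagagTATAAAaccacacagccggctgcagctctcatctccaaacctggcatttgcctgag

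Angpt4, Olfm1 and Serpinb9b were at least 1.5-fold higher in both estimates with no counted probe set differing the other way. Angpt4, which encodes angiopoietin 4, a ligand of the endothelial receptor Tie2, read 120 untreated and 267 with phenylephrine, 2.22-fold higher (1.15 and 0.76), and its second counted probe set read 97.3 and 151. Olfm1, which encodes the secreted glycoprotein olfactomedin 1, read 534 and 865 (0.70 and 0.61). All 3 of its probe sets were higher, by 0.55 to 0.84 on the log2 scale. Serpinb9b, an intracellular serpin of a family with close paralogs, read 87.3 and 137 (0.65 and 0.62) at its only probe set. Plcxd1, which encodes a protein with a phospholipase C domain, read 34.3 and 59.3, and its second probe set differed by −0.12. The promoter window of Angpt4 (chr2:151910957-151911256, + strand) also held 1 TATAAA match, shown in capitals. TATAAA was sought on both strands and was found in 13.6% of all 32851 RefSeq windows of this length, and in a window of 15.7% of all 27025 genes, of 13.2% of the 38 genes called higher that had an entry and of 12% of the 25 called lower.
Angpt4: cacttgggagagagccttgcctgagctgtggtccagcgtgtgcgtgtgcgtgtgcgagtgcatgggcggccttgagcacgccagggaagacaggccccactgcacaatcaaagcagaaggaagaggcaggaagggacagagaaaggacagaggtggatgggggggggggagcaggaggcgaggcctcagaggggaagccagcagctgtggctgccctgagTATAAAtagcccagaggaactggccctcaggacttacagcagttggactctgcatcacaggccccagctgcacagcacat

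**Figure D3:**
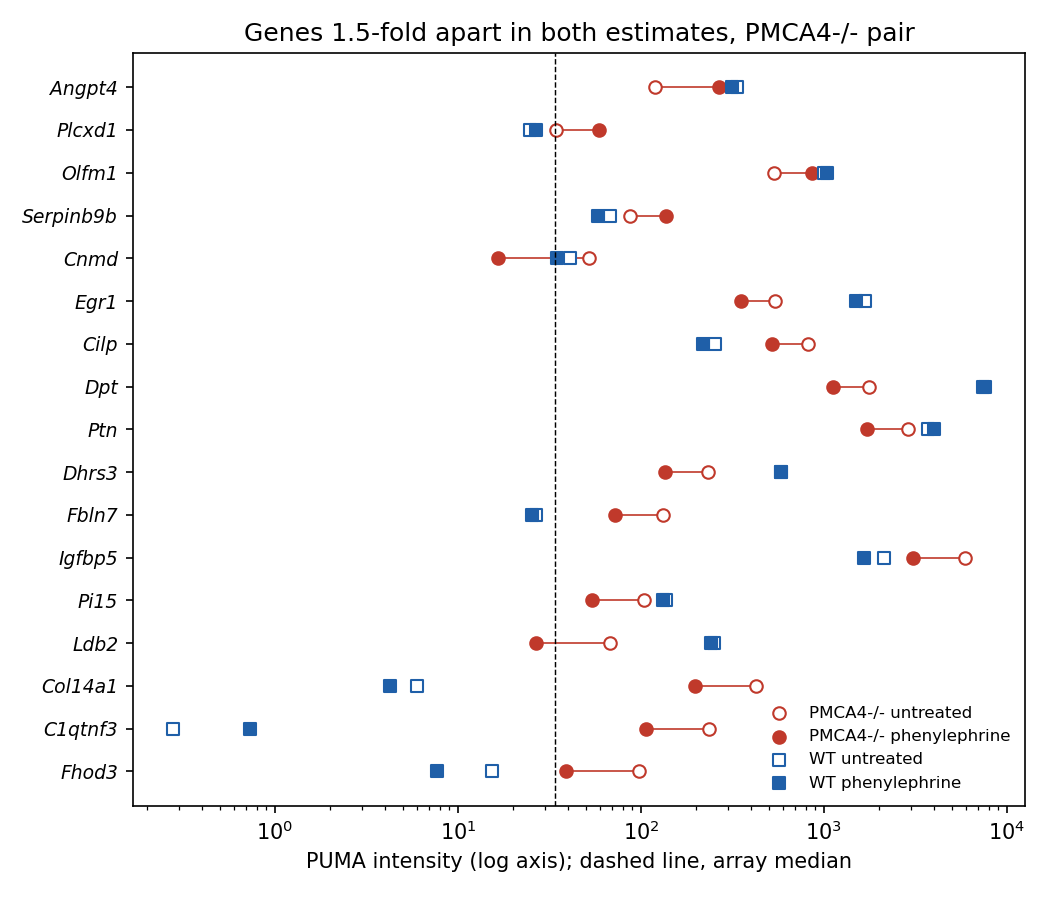
PUMA intensity (log axis) of the 17 genes at least 1.5-fold apart in both estimates of the PMCA4-/- pair, in untreated (open) and phenylephrine-treated (filled) PMCA4-/- (red circles) and WT (blue squares) fibroblasts, 1 array each; the dashed line is the array median. The PMCA4-/- circles of a gene, joined by a line, lie apart, while the WT squares lie close together for most genes and apart below the median for C1qtnf3, Col14a1 and Fhod3.

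The WT arrays, which share no array with the PMCA4-/- pair, were read for the same genes. In WT fibroblasts 24 of the 11378 genes were called higher (0.211%) and 25 lower (0.22%), 49 in either direction (0.431%), and none reached 1.5-fold in both estimates. Over the 11374 genes above the median on the WT arrays instead, 31 were called higher (0.273%) and 32 lower (0.281%), and 1 reached 1.5-fold in both estimates (0.00879%). No gene was called in both genotypes, in either direction. With only 0.747% of the counted genes called in PMCA4-/- and 0.431% in WT cells, little or no overlap follows from these shares alone. The lack of overlap is therefore no result about the genotypes. Of the 13 genes lower in both estimates, C1qtnf3, Col14a1, Fhod3 and Fbln7 were below the median on both WT arrays, with C1qtnf3 at 0.279 and 0.735 and Col14a1 at 6.02 and 4.28, so their WT response could not be read. Of the other 9, 7 were lower in WT as well in both estimates, against 3471 of all 11378 counted genes. Their WT differences were smaller than those in PMCA4-/- cells. The genes were chosen by the size of the PMCA4-/- difference, so this does not show a weaker WT response. Igfbp5 read 2138 untreated and 1658 with phenylephrine in WT (−0.37 in both estimates), Cilp 255 and 218 (−0.22 and −0.33), and Egr1 1680 and 1499 (−0.16 and −0.18). Ldb2, Dhrs3 and Pi15 differed by −0.06 to −0.01 in WT in PUMA, and Cnmd by −0.22. Ptn, at 3704 and 3982, was slightly higher in WT, and Dpt, at 7370 and 7575, had opposite signs in the 2 estimates. Angpt4 read 336 and 313 and Olfm1 1007 and 1046 in WT, so that in PUMA both WT arrays lay above both PMCA4-/- arrays for these genes. In Robust Multiarray Average this did not hold for Angpt4, at 446 and 757 in PMCA4-/- and 751 and 765 in WT cells. Over all genes called higher in PMCA4-/- cells, 36 were above the median on a WT array, and their median WT log2 difference was −0.03; for those called lower it was −0.06 over 29 genes. Whether the 2 genotypes responded differently was not tested, because a model with that term leaves no residual degree of freedom over 4 arrays.

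A model over both genotypes asked which genes differed with phenylephrine after allowing for genotype. It leaves 1 residual degree of freedom, and its error is the spread of the difference between the genotypes rather than between cultures. With limma and Benjamini-Hochberg adjustment, 0 genes were called higher (0% of 11378) and 0 lower (0%), while 507 genes (4.46%) had an unadjusted p under 0.05. Igfbp5 had a log2 difference of −0.65 with an SE of 0.14 over both genotypes (adjusted p = 0.976). When limma's prior spread was allowed to follow intensity, so that the spread of each gene was taken wholly from genes of like brightness, 15 genes were called higher (0.132%) and 20 lower (0.176%). Igfbp5 then led (SE 0.07, adjusted p = 4.83e-19), followed by Egr1 at −0.39 (SE 0.06). The elastin gene Eln, at 81.6 and 60.0 in PMCA4-/- cells and 63.3 and 31.1 in WT cells, was among those called lower (−0.67, SE 0.17, adjusted p = 0.0257). Its WT value with phenylephrine lay under the array median and was raised to it before the fit.

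The α1-receptor genes themselves were dim. Of the α1-receptors that phenylephrine binds, Adra1a read 11.2 and 9.64 and Adra1b 2.76 and 1.06 in PMCA4-/- cells, far below the median, and Adra1d was not measured here. Downstream of the receptors, none of 15 counted genes of Gq signalling and protein kinase C was called, with a median log2 difference of 0.10 against 0.03 over all counted genes. In Robust Multiarray Average these medians were 0.02 and 0.01, and 8 members were higher and 7 lower in both estimates. Only 0.747% of all counted genes were called in either direction, so few or no calls say little about this or another list of similar size. Plcb1, which encodes a phospholipase C of the Gq pathway, read 39.8 and 57.1 (0.52 and 0.33), the largest difference of that list in PUMA, while in Robust Multiarray Average that of Dgke, a diacylglycerol kinase gene, was larger (0.24 and 0.46). Regulators of G-protein signalling were not called either, and Rgs4, which shortens Gq signals, read 1367 and 1161 (−0.24 in both estimates) against 1583 and 1388 in WT (−0.19 and −0.25).

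In the calcium arm no gene was called, which says little beside the 0.747% called over all counted genes. None of 12 genes of calcineurin and NFAT was called, and Rcan1, a target of NFAT, read 300 and 320 (0.09 in both estimates). Among calcium pumps, exchangers and channels none of 15 was called. Slc8a1, the sodium-calcium exchanger, read 130 and 110, and Orai1, a store-operated calcium channel, read 161 and 204, with its 2 probe sets at 0.02 and 0.34. Of 21 immediate early factors Egr1 alone was called. Egr2 read 43.0 and 30.6 (−0.34 and −0.41), Atf3 read 102 and 149 (0.54 and 0.26), and Fos read 159 and 184 (0.21 and 0.00), so the members had no common direction. Of the genes that mark hypertrophy in cardiomyocytes, the natriuretic peptide genes Nppa and Nppb read under 8 on both PMCA4-/- arrays, and only Acta1 was counted, at 34.1 and 35.8.

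In PUMA the collagens had the lowest median of the pathway lists with more than 1 counted member. In Robust Multiarray Average the interferon response genes had the lowest, −0.11. Of 17 counted fibrillar and network collagens, Col14a1 alone was called, and 16 were lower in both estimates (median −0.11 and −0.09), against 3540 of all 11378 counted genes. Col1a1, a chain of collagen I, read 1854 and 1461 (−0.34 and −0.36), and its second probe set differed by −0.21. Col6a2, a chain of collagen VI, read 6916 and 5915 (−0.23 and −0.16), and Col11a1 read 43.3 and 27.4, below the median with treatment. Other chains were closer to equal: Col3a1 read 13270 and 12258 and Col1a2 13364 and 12824. In WT cells the median over the same collagens was 0.01 in PUMA and −0.09 in Robust Multiarray Average, so the 2 estimates differed in WT. Of these collagens 12 were among the 2845 brightest genes, whose own median in PUMA was 0.01 in PMCA4-/- and 0.06 in WT cells.

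Of 27 counted matricellular and matrix proteins, Cilp was called lower and none higher, 17 were lower and 5 higher in both estimates, and the median was −0.06 in both. Fbn1, which encodes the microfibril protein fibrillin 1, read 1937 and 1481 (−0.39 and −0.36) against 5585 and 5643 in WT cells. Ogn, which encodes the small proteoglycan osteoglycin, read 7549 and 6044 (−0.32 and −0.28), and both of its probe sets differed by −0.32. In WT cells Ogn read 4676 and 5165. Eln differed by −0.44 and −0.49 in PMCA4-/- cells and by −0.90 and −0.45 in WT cells, where it was called lower although its treated value lay under the array median. Of 18 counted matrix proteases and inhibitors none was called, 6 were higher and 9 lower in both estimates, and the median was −0.01 in both. Plau had the largest rise of this list in PUMA, at 136 and 170 (0.33 and 0.25). Timp3, an inhibitor of metalloproteinases, read 2274 and 1883 (−0.27 and −0.26), with all 4 probe sets lower, and Adamts5, a proteoglycan-cleaving protease, read 72.7 and 55.2. Contractile genes of myofibroblasts were not called in any of 14 counted members, their median was 0.00, and Myl9, a myosin light chain, read 1674 and 1878 (0.17 and 0.10).

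Interferon response genes mostly had lower values with phenylephrine in PMCA4-/- cells and higher ones in WT cells. Of 18 counted genes 13 were lower and 4 higher in both estimates in PMCA4-/- cells (median −0.09 and −0.11), and 14 were higher and 2 lower in WT cells (median 0.09 in both), where 4963 of all 11378 counted genes were higher and 3471 lower. Only Oas1a, which encodes an enzyme that activates RNase L, was called, at 134 and 78.0 (−0.78), although its other estimate gave −0.25 and its paralogs may share probes. Ifit1, which encodes an RNA-binding inhibitor of viral translation, read 827 untreated and 621 with phenylephrine in PMCA4-/- cells (−0.41 and −0.43) and 128 and 177 in WT cells (0.46 and 0.45). Ifit1 was therefore lower with phenylephrine in one genotype and higher in the other, at a level that was higher in both PMCA4-/- arrays than in both WT arrays. Ifit3, of the same family, read 625 and 494 (−0.34 and −0.35) against 352 and 385 in WT cells, Oasl2 read 263 and 202 (−0.38 and −0.34) against 51.6 and 55.6, and Gbp3, a guanylate-binding protein, read 555 and 436 (−0.35 and −0.26) against 389 and 429. The transcription factor gene Irf9, at 781 and 739, differed by less than 0.1 on the log2 scale. The sum of the macrophage markers read above was somewhat higher with phenylephrine in both genotypes, at 1528 and 1691 in WT cells. In PMCA4-/- cells 2 of the 4 counted markers were higher and 2 lower in both estimates. Their part in the interferon genes was not tested. Neither was the difference between the genotypes.

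**Figure D4:**
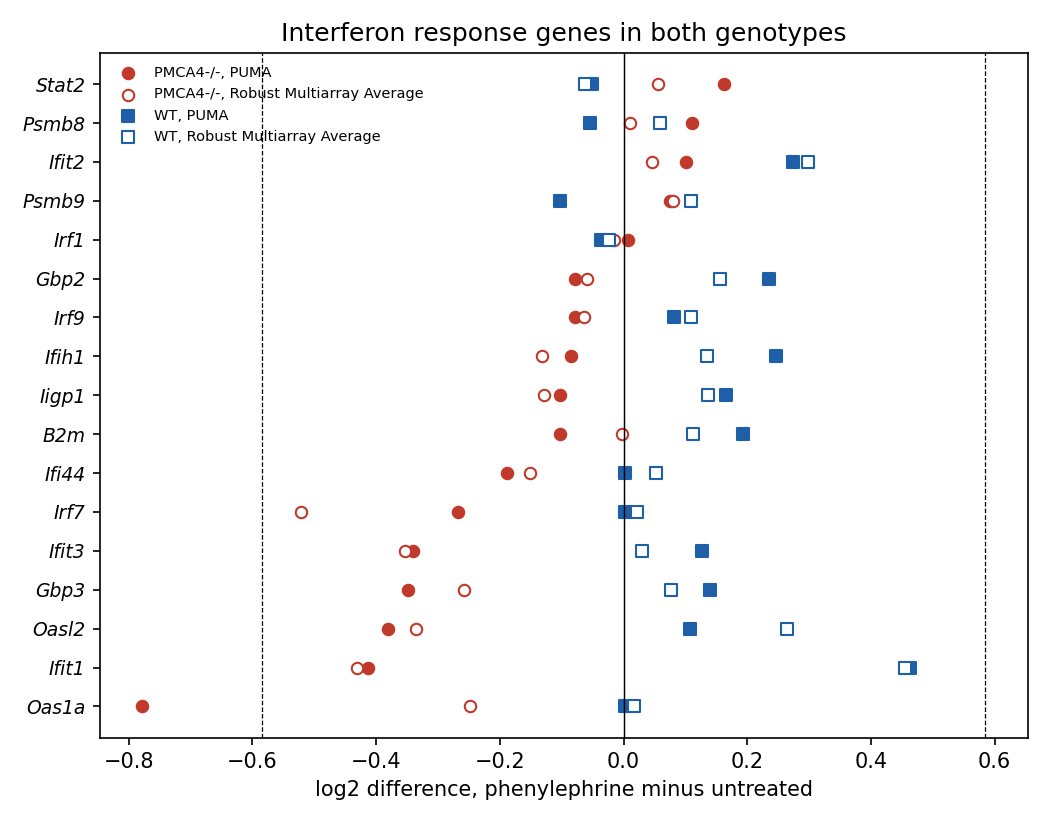
Log2 difference between phenylephrine-treated and untreated cells for 17 of the 18 counted interferon response genes, in PMCA4-/- (red circles) and WT (blue squares) fibroblasts, in PUMA (filled) and Robust Multiarray Average (open), 1 pair of arrays per genotype, with dashed lines at 1.5-fold. Red symbols lie left of 0 and blue symbols right of it for most genes, and only the PUMA value of Oas1a passes a line.

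The promoters of Ifit1, Ifit3 and Oas1a are shown because they carry the motif to which the interferon-activated factor ISGF3 binds, the interferon-stimulated response element. It was searched on both strands as GAAA, any 2 bases and GAAA, so that a match on the opposite strand reads TTTC, any 2 bases and TTTC, and matches are in capitals. Each of these 3 windows held 2 matches, which overlap in Oas1a. The windows are chr19:34640639-34640938 (+ strand) for Ifit1, chr19:34583279-34583578 (+ strand) for Ifit3 and chr5:120907476-120907775 (− strand) for Oas1a, each written in the direction of its gene.
Ifit1: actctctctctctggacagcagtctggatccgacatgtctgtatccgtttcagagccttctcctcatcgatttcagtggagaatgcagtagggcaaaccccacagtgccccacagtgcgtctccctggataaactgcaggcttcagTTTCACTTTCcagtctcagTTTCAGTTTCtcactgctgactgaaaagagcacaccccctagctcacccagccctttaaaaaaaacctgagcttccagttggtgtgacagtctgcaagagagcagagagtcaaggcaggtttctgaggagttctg
Ifit3: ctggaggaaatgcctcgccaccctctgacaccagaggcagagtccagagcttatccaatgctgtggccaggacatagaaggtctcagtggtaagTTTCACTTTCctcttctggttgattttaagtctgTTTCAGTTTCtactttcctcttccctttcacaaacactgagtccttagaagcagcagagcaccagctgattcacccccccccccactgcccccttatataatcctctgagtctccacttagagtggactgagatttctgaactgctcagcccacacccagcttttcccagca
Oas1a: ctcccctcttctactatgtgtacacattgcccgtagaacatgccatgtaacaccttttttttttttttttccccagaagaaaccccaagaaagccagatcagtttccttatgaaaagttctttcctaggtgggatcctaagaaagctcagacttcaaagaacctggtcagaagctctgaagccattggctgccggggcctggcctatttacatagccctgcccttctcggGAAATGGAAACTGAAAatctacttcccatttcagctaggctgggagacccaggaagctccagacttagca

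The motif was found in 3.44% of all promoter windows and in a window of 3.99% of all genes. Of the 16 counted interferon genes with an entry, 8 held it (50%), and these were Ifit1, Ifit3, Oas1a and Gbp3, all lower with phenylephrine by 0.34 or more on the log2 scale, and Stat2, Gbp2, Ifih1 and B2m, which differed by −0.10 to 0.16. Oasl2 and Irf7, whose windows held no match, differed by −0.38 and −0.27. Among called genes it was found in 3 of the 25 lower genes with an entry and 1 of the 38 higher ones.

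Of 21 counted genes of Wnt signalling, 2 were called higher, against 0.413% of all counted genes. These were the ligand gene Wnt4 and Nkd2, which encodes an inhibitor of Dishevelled. None was called lower, the median of the list was 0.01, and a count of 2 genes says little about the list. Wnt4 read 200 and 311 (0.64 and 0.39) in PMCA4-/- cells, and its second probe set, at 140 and 189, agreed in direction (0.44). In WT cells Wnt4 read 445 and 309 (−0.53 and −0.12), and its second probe set, at 345 and 324, differed less. Nkd2 read 68.8 and 105 (0.61 and 0.19), and its 4 probe sets ranged from 0.05 to 0.67. Another ligand gene, Wnt16, read 383 and 547 (0.51 and 0.44), short of the fold required, against 402 and 404 in WT cells. The secreted antagonists were mixed. Sfrp2, which binds Wnt ligands, read 1631 and 1390 (−0.23 and −0.30), Dkk2, which binds the LRP co-receptors, read 657 and 517 (−0.35 and −0.34), and Sfrp4 read 83.2 and 94.9 (0.19 and 0.07). Axin2, a common target of β-catenin signalling, read 78.1 and 94.8 (0.28 and 0.06).

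In the IGF axis Igfbp5 was the called gene of 13 counted. Igfbp4, which binds the same growth factors, read 10336 and 10304 at its brightest probe set (−0.00 and 0.08), and its 6 probe sets ranged from −0.00 to 0.32, so that it did not share the difference of Igfbp5. Irs1, an adaptor of the insulin and IGF receptors, read 1537 and 1340 (−0.20 and −0.25), and Irs2 read 63.6 and 88.3 (0.47 and 0.15). Igf1 read 4325 and 3837 (−0.17 and −0.21), close to its difference in WT cells, where it read 3541 and 3040 (−0.22 and −0.26).

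Over all 33 gene lists 25 held no called gene, and 9 of 516 distinct counted members (1.74%) were called against 0.747% of all counted genes. The lists were chosen with earlier results of these data known, so the larger share is no result about them. In Robust Multiarray Average, medians of lists with more than 1 counted member ran from −0.11, for the interferon response, to 0.12, for NRF2 and metallothionein. In PUMA they ran from −0.11, for the collagens, to 0.14, for adipogenic genes. In that list Plin4, which encodes a lipid droplet coat protein, was called higher, at 306 and 467 (0.61 and 0.39), and Pparg, the adipogenic nuclear receptor, read 187 and 227 (0.28 and 0.36), whereas in WT cells both were slightly lower, at 217 and 194 and at 265 and 260. The brighter Fabp4 was higher in both genotypes, at 1272 and 1500 in PMCA4-/- and 505 and 626 in WT cells. In both estimates 7 of 12 counted members were higher and 4 lower in PMCA4-/- cells, and 6 and 5 in WT cells. Among prostaglandin genes Ptgds, a prostaglandin D synthase, was called lower, at 67.5 and 41.9, with only −0.22 in the other estimate.

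Small shifts ran through a few lists with no called member. CDK inhibitors and p53 targets had a median of 0.12, with 13 of 17 higher in both estimates, against 5616 of all 11378 counted genes. Cdkn2b, which inhibits cyclin-dependent kinases, read 405 and 556 (0.46 and 0.41) against 689 and 729 in WT cells. Genes of NRF2 and metallothionein had a median of 0.12, with 11 of 16 higher. Nqo1, an NRF2 target, read 146 and 184 (0.34 and 0.21), and Gclm, of glutathione synthesis, read 1565 and 1846 (0.24 and 0.27). In WT cells the medians of these lists were 0.09 and 0.11 in PUMA and 0.02 and 0.04 in Robust Multiarray Average. Cytosolic ribosomal proteins had a median of −0.05 in PMCA4-/- and 0.11 in WT cells in PUMA, and of −0.01 and 0.02 in Robust Multiarray Average, so the shift depended on the estimate, and 21 of the 22 were among the 2845 brightest genes. Cytokine genes were not called in any of 19 counted members, and Il1rl1, the receptor of interleukin 33, read 5317 and 6889 (0.37 and 0.38) against 2014 and 2164 in WT cells, with both probe sets higher.

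**Figure D5:**
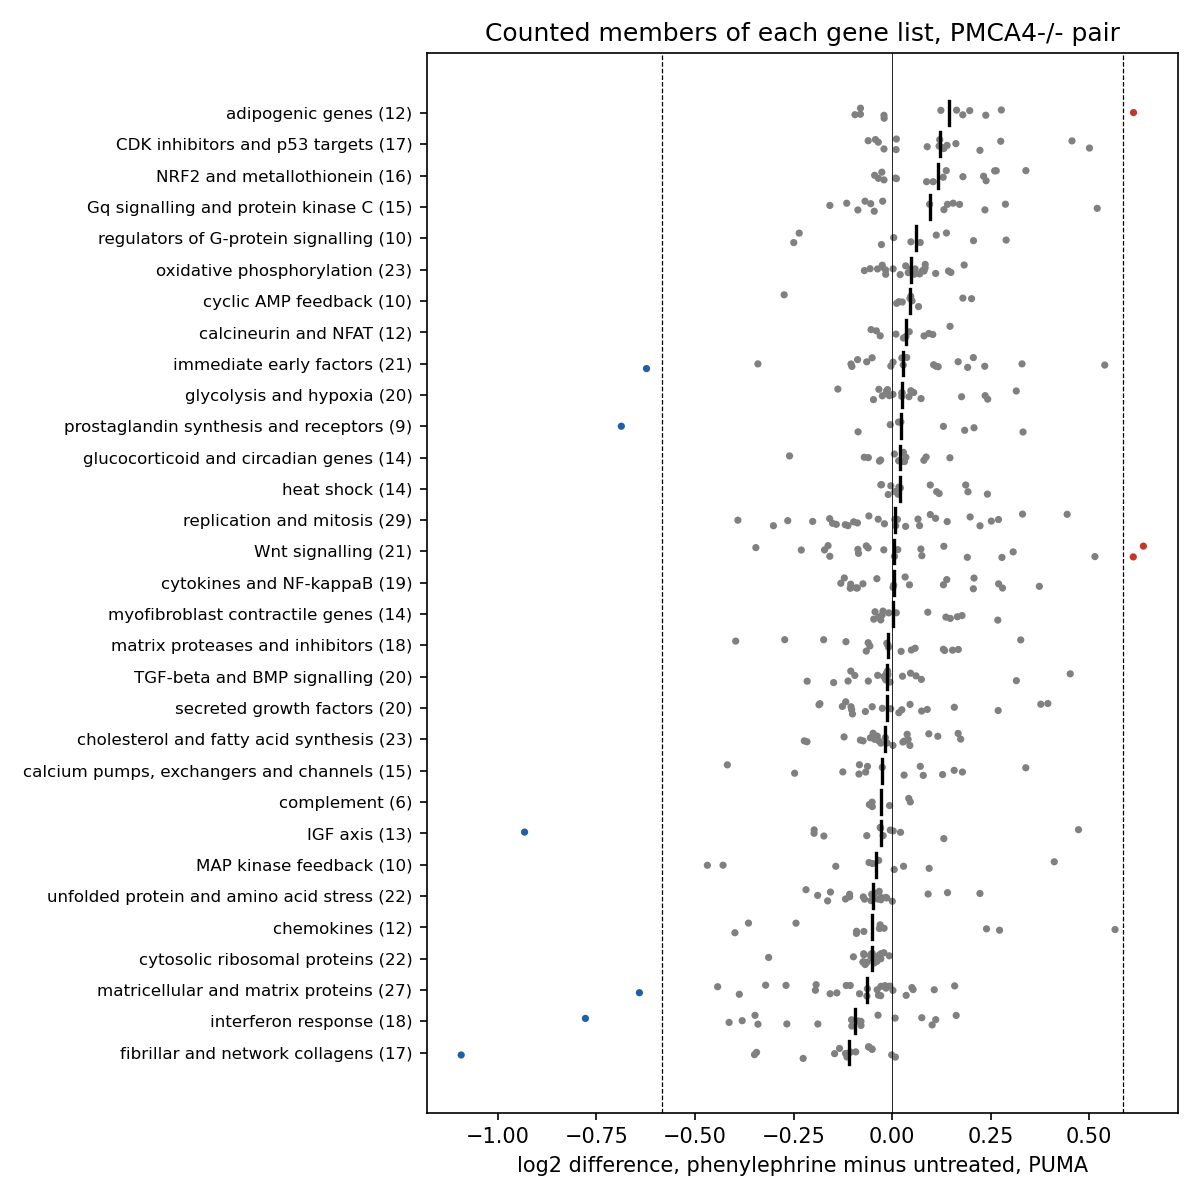
Log2 difference between phenylephrine-treated and untreated PMCA4-/- fibroblasts (PUMA) for every counted member of the gene lists with more than 1 counted member, the number of which stands behind each name; black bars are medians, dashed lines 1.5-fold, and red and blue points are called higher and lower. The medians lie between −0.11 for the collagens and 0.14 for adipogenic genes, and 9 members pass a line.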

How the data were processed

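RNA of cultured cardiac fibroblasts was measured on 4 Affymetrix GeneChip arrays, 1 each for untreated and phenylephrine-treated WT and PMCA4-/- cells. One of the authors' deposited tables holds linear PUMA intensities per probe set, a second holds those of Robust Multiarray Average, and another repeats PUMA: its 180148 values equal those of the first within a share of 0.0001. The paper names MOE430A arrays, whereas the tables hold 45037 probe sets. For the authors' tools, versions were not given in the sources used here. The tables also hold the authors' signed fold changes and probabilities of a positive log ratio per pair, which were not used.

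Symbols were updated through RefSeq (31088 probe sets current, 3520 by accession, 394 from an older symbol, 2816 kept as written); 1394 probe sets with several symbols, 5820 with none and 5 with an unreadable one were left out of the genes. Values under an array's median were raised to it and log2 was taken. Each gene was read at its probe set of highest mean over the PMCA4-/- arrays and counted when that mean exceeded 34.0. No normalization was added. limma 3.58.1 in R 4.3.3 fitted genotype and treatment over 4 arrays, with a threshold of 0.05. The call rule and limma were tested on simulated data. Named genes were those at least 1.5-fold apart in both estimates with all counted probe sets the same way, the adrenergic receptors, Atp2b4, Sfrp2, Igfbp4 and Igfbp5, and up to 6 called or 4 otherwise largest members of each list; some further list members are given as examples, and some named genes are not reported here. The comparison, the gene lists and the rule were chosen with earlier results of these data known. The number of arrays limits the precision. Alternatives covered the estimate, floor, filter, probe set, scaling, fold and the limma model.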

Additional observations from a re-analysis of the deposited data

Results flagged for a closer look

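Of the 11378 counted genes, 5 were at least 1.2-fold apart with phenylephrine in opposite directions in PMCA4-/- and WT cells in both estimates, a fold chosen after seeing the data. Lower in PMCA4-/- and higher in WT cells were 2 interferon-inducible genes, Ifi27l2a, which read 2548 untreated and 2002 with phenylephrine in PMCA4-/- cells (log2 difference −0.35) and 240 and 343 in WT cells (0.52), and Ifit1, which differed by −0.41 and 0.46. The same held for the protease gene Adamts5, at −0.40 and 0.26, and for 8030497I03Rik, at −0.47 and 0.26. Stac2 was higher in PMCA4-/- cells, at 163 and 205 (0.33), and lower in WT cells, at 97.8 and 77.5 (−0.34). With 1 array per condition the difference between the genotypes was not tested for any of these genes.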

How the results depend on the processing

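The counts of 47 genes called higher and 38 called lower in PMCA4-/- cells moved with the intensity estimate, the fold and the treatment of dim genes. Reading Robust Multiarray Average in place of PUMA gave 7 higher and 14 lower, of which 3 and 10 were among the genes called in PUMA. Requiring 1.5-fold in both estimates gave 4 and 13, a 2-fold rule 2 and 4, a filter at the upper quartile 3 and 7, and no floor 62 and 61. With PUMA above 100 on both arrays, a setting chosen after seeing the data, 5 genes of 9243 were called higher and 10 lower. Other settings, namely no filter, the median over probe sets, choosing probe sets on 4 arrays, centring, quantile normalization, PUMA alone and, chosen after seeing the data, 1.3-fold in both estimates, gave 36 to 48 higher and 35 to 53 lower. With 1.3-fold in both estimates the genes themselves changed: of 40 higher and 42 lower, only 15 and 16 were among the 47 and 38. limma's 0 calls in each direction became 15 and 20 with an intensity trend and stayed at 0 with the other estimate (448 unadjusted p under 0.05), without the floor (486), without the filter (1485 of 20586), without the genotype term (12) and after quantile normalization (478); the cause was not tested. For named genes, 1082 alternative values lay within the spread between probe sets of the main value, 55 did not, and none reversed a called difference. For list medians, 297 values stayed and 6 moved. No paired analysis was possible because each group has 1 array and the labels give no replicate numbers. Leaving out a replicate was not possible with 1 array per condition. The arrays have no replicates, and for dim genes in particular no error beyond that between probe sets was used here.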

Other observations

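A few genes short of the 1.5-fold rule were at least 1.3-fold apart in both estimates at several counted probe sets, all in one direction, a criterion chosen after seeing the data. Opcml, which encodes a cell adhesion protein of the immunoglobulin family, read 140 untreated and 94.8 with phenylephrine in PMCA4-/- cells (log2 difference −0.57 in PUMA and −0.86 in Robust Multiarray Average). Fgl2, which encodes a fibrinogen-like protein, read 221 and 156 (−0.50 and −0.55), while in WT cells it read 295 and 358. On the higher side Ccl9, a chemokine gene, read 136 and 201 (0.57 and 0.53) against 505 and 516 in WT cells, and Cd24a, which encodes a surface glycoprotein, read 141 and 210 (0.57 and 0.60) with all 3 probe sets higher.

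Of 7219 probe sets without a single gene symbol, 2412 passed the intensity filter, and 10 of these were called higher (0.415%) and 8 lower (0.332%) with phenylephrine in PMCA4-/- cells, shares near the 0.413% and 0.334% of all counted genes and so no result about these probe sets. In both estimates 1 was at least 1.5-fold higher and 0 were lower.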
